A study of Mus musculus with 2 samples.

Results

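The genes described here are the enzymes that remove superoxide, peroxides and reactive electrophiles with glutathione, peroxiredoxins and thioredoxins, as transcribed in the adrenal gland of the mouse. They were picked out by gene symbol, with no measured value in the rule: every protein-coding gene of the glutathione transferase (Gst and Mgst), glutathione peroxidase (Gpx), peroxiredoxin (Prdx), thioredoxin (Txn), thioredoxin reductase (Txnrd) and superoxide dismutase (Sod) families that fits the symbol pattern, and Cat, Gclc, Gclm, Gss, Gsr, Srxn1 and Nqo1. The choice gave 54 genes of the 55536 genes listed. Both libraries were made by total RNA sequencing from adrenal glands of male B6CASTF1/J mice aged 2 months, the F1 hybrid of C57BL/6J and CAST, with no treatment named. There was 1 group of 2 libraries, so the only comparison between samples was replicate 2 against replicate 1, which sets 1 library against 1 library and allows no test between conditions. Animal numbers differ between the sample descriptions, but the library descriptions and the donor field are identical, so only the sample descriptions speak for separate animals.

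As background, superoxide leaks from respiratory chains and from the cytochrome P450 enzymes that make steroids in adrenal mitochondria. Superoxide dismutases turn it into hydrogen peroxide, which catalase, glutathione peroxidases and peroxiredoxins then reduce to water. The peroxidases draw their electrons from glutathione or from thioredoxin, and glutathione reductase and the thioredoxin reductases return these carriers to their reduced form at the cost of NADPH. Glutathione transferases join glutathione to electrophiles, among them products of lipid peroxidation.

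Some of these enzymes react through selenocysteine, an amino acid written by the codon TGA, which elsewhere ends translation. The coding sequences below are shown because the codon at the reactive position separates the peroxidases that need selenium from those that do not. Each is a stretch of 33 bases of the GENCODE M21 transcript sequence on build GRCm38, read 5′ to 3′ on the coding strand, with the codon of the reactive residue in capitals.
Gpx1: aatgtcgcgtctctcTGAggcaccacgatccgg
Gpx2: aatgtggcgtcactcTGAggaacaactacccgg
Gpx3: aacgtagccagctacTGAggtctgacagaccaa
Gpx4: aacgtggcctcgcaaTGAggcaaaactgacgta
Gpx6: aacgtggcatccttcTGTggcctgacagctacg
Gpx7: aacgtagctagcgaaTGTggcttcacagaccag
Gpx8: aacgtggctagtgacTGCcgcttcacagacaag

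Gpx1, Gpx2, Gpx3 and Gpx4 carry TGA there, while Gpx6, Gpx7 and Gpx8 carry a cysteine codon, TGT or TGC. The stretch of Gpx5 was not found by the motif search used, so its codon is not shown. The stretch of Gpx1 lies at chr9:108339436-108339468 in exon 1, and that of Gpx3 at chr11:54907241-54907273 in exon 2, both on the plus strand. The stretch of Gpx4 lies at chr10:80054722-80054754 in exon 3, also on the plus strand. In the thioredoxin reductases the TGA codon stands at the far end of the protein instead. The last 24 coding bases, stop codon included, show it just before the final coding codon.
Txnrd1: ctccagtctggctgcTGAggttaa
Txnrd2: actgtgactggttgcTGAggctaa
Txnrd3: actcagaaaggctgcTGAggctag

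The codon is number 498 of 499 coding codons in Txnrd1, 526 of 527 in Txnrd2 and 614 of 615 in Txnrd3. In each of them TGA follows a TGC, so the pair cysteine and selenocysteine is written side by side in all 3 genes. The 7 genes of the list annotated as selenoproteins (Gpx1 to Gpx4 and Txnrd1 to Txnrd3) together reached 706 TPM in replicate 2 against 791 TPM in replicate 1, which was 19.2% in replicate 2 and 21.1% in replicate 1 of the TPM of all 54 genes.

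The genes were strongly transcribed as a set. TPM, a transcript level corrected for length and library size, was taken from the authors' alignment-based gene tables unless stated otherwise. Of the 54 genes, 45 reached 1 TPM in both libraries (83.3%), against 54.2% of the 22015 nuclear protein-coding genes. At 100 TPM or more in both libraries there were 13 of 54 (24.1%), against 1.98% of protein-coding genes. The median level was 26.7 TPM over the 54 genes and 1.86 TPM over protein-coding genes. Their summed level was 3672 TPM in replicate 2 against 3751 TPM in replicate 1 (3712 ± 56.2 TPM, SD, n = 2), or 1.21% in replicate 2 and 1.26% in replicate 1 of all protein-coding TPM. The 10 highest genes held 63.6% of that sum in replicate 2 and 63.7% in replicate 1.

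**Figure D1:**
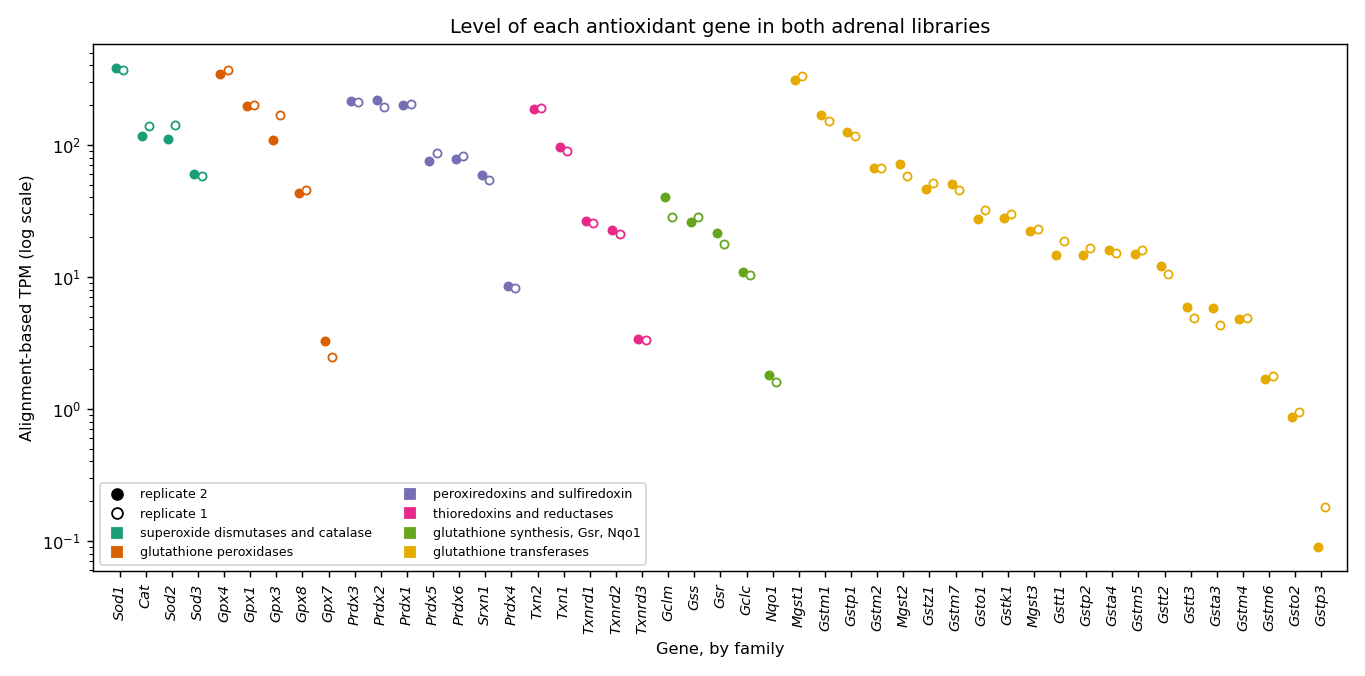
Alignment-based TPM on a log scale (y axis) of each antioxidant gene at 0.1 TPM or more in either library (x axis, by family), with filled points for replicate 2 and open points for replicate 1. Sod1, Gpx4 and Mgst1 stand highest, each above 300 TPM in both libraries, and Gpx3 shows the widest gap among the genes above 100 TPM, 109 TPM in replicate 2 against 168 TPM in replicate 1.

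Superoxide dismutases were led by Sod1, the copper and zinc enzyme of the cytosol, which had the highest mean level of the 54 genes, though Gpx4 stood slightly above it in replicate 1. Sod1 (ENSMUSG00000022982.10, chr16:90220754-90226329, plus strand) had 383 TPM in replicate 2 against 371 TPM in replicate 1. Its transcription was simple: 1 transcript of 641 bases held 99.5% of its TPM in both libraries. Sod2, the manganese enzyme of the mitochondrial matrix (ENSMUSG00000006818.5, chr17:13006846-13040063, plus strand), had 111 TPM in replicate 2 against 140 TPM in replicate 1. Sod3, the secreted enzyme, had 59.9 TPM in replicate 2 against 58.5 TPM in replicate 1. Sod1 thus made up 69.2% of the family's TPM in replicate 2 and 65.1% in replicate 1. Cat, the peroxisomal catalase, had 117 TPM in replicate 2 against 139 TPM in replicate 1.

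Among the glutathione peroxidases Gpx4, which reduces lipid hydroperoxides within membranes, was the highest. Gpx4 (ENSMUSG00000075706.10, chr10:80047166-80056439, plus strand) had 346 TPM in replicate 2 against 372 TPM in replicate 1, or 49.4% in replicate 2 and 47.2% in replicate 1 of its family. Gpx1, the peroxidase of cytosol and mitochondria, had 199 TPM in replicate 2 against 201 TPM in replicate 1. Gpx3, the secreted form found in plasma, had 109 TPM in replicate 2 against 168 TPM in replicate 1. Gpx8, a peroxidase of the endoplasmic reticulum, had 43.3 TPM in replicate 2 against 45.5 TPM in replicate 1. The other 4 stood far lower, with Gpx7 at 3.29 TPM in replicate 2 against 2.47 TPM in replicate 1. Gpx2, best known from the gut, had 1 count in the pair of libraries, and Gpx5 and Gpx6 had none. Peroxidases written with TGA therefore include both the highest member of the family and one at the edge of detection.

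Peroxiredoxins, which reduce hydrogen peroxide through a cysteine, had 3 genes at nearly the same level by alignment. Prdx3 of the mitochondrial matrix had 214 TPM in replicate 2 against 211 TPM in replicate 1. Prdx2, a cytosolic peroxiredoxin that is abundant in red cells, had 221 TPM in replicate 2 against 194 TPM in replicate 1. Prdx1, its cytosolic relative, had 201 TPM in replicate 2 against 203 TPM in replicate 1. Each of Prdx1, Prdx2 and Prdx3 held between 24.7% and 27.6% of the family's TPM by alignment, and the order among them was not the same in the libraries. In the authors' read-based tables Prdx2 stood apart by TPM, at 685 TPM in replicate 2 against 587 TPM in replicate 1. There Prdx1 had 423 TPM in replicate 2 against 400 TPM in replicate 1, and Prdx3 had 360 TPM against 340 TPM. A 549-base transcript of Prdx2 with a retained intron held 43.1% of its read-based TPM in replicate 2 and 44.6% in replicate 1. By read-based counts Prdx2 was not the highest, with 7861 in replicate 2 and 7411 in replicate 1. Prdx1 had 7815 and 8288 such counts, and Prdx3 had 9713 and 10404. Read-based TPM over protein-coding genes summed to 627205 in replicate 2 and 583337 in replicate 1, against 304363 and 297427 by alignment. Prdx6, which uses glutathione and also has phospholipase activity, had 78.6 TPM in replicate 2 against 81.9 TPM in replicate 1. Prdx5, found in several compartments, had 75.1 TPM in replicate 2 against 86.1 TPM in replicate 1. Prdx4 of the secretory pathway was low at 8.5 TPM in replicate 2 against 8.17 TPM in replicate 1. Srxn1, the sulfiredoxin that repairs overoxidised peroxiredoxins, had 59.6 TPM in replicate 2 against 54.4 TPM in replicate 1.

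Of the thioredoxins, the mitochondrial gene was the higher. Txn2 had 185 TPM in replicate 2 against 189 TPM in replicate 1, while the cytosolic Txn1 had 96.8 TPM in replicate 2 against 89.9 TPM in replicate 1. The reductases were lower and close to each other: Txnrd1, the cytosolic enzyme, had 26.3 TPM in replicate 2 against 25.7 TPM in replicate 1. Txnrd2, the mitochondrial enzyme, had 22.6 TPM in replicate 2 against 21.2 TPM in replicate 1. Txnrd3, best known from testis, had 3.41 TPM in replicate 2 against 3.30 TPM in replicate 1. Summed over the 5 genes whose product acts chiefly in mitochondria, the level was 561 TPM in replicate 2 against 592 TPM in replicate 1, or 15.3% in replicate 2 and 15.8% in replicate 1 of the whole set.

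The 3 genes of glutathione synthesis summed to 77.8 TPM in replicate 2 against 67.2 TPM in replicate 1. Gclm, the modifier subunit of glutamate-cysteine ligase, had 40.6 TPM in replicate 2 against 28.3 TPM in replicate 1. Gclc, the catalytic subunit of that ligase and the rate-limiting step of synthesis, had 10.98 TPM in replicate 2 against 10.4 TPM in replicate 1. Gss, the synthetase that adds glycine, had 26.2 TPM in replicate 2 against 28.5 TPM in replicate 1. Gsr, the reductase that returns oxidised glutathione to its reduced form, had 21.6 TPM in replicate 2 against 17.8 TPM in replicate 1. Nqo1, a quinone reductase and a common readout of the transcription factor Nrf2, was low at 1.81 TPM in replicate 2 against 1.61 TPM in replicate 1, from 95 and 91 counts.

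The 25 glutathione transferases, soluble and membrane enzymes pooled, summed to 1007 TPM in replicate 2 against 999 TPM in replicate 1. That was the largest total only because they were pooled. The 22 soluble enzymes summed to 606 TPM in replicate 2 against 587 TPM in replicate 1, and the 3 membrane enzymes to 402 TPM against 412 TPM. The 6 peroxiredoxins, at 798 TPM in replicate 2 against 785 TPM in replicate 1, stood above each of these. Mgst1, a membrane transferase that also reduces lipid peroxides (ENSMUSG00000008540.11, chr6:138140316-138156755, plus strand), had 308 TPM in replicate 2 against 332 TPM in replicate 1. Mgst2, a relative that can make leukotriene C4, had 71.4 TPM in replicate 2 against 57.8 TPM in replicate 1, and Mgst3 had 22.2 TPM in replicate 2 against 22.9 TPM in replicate 1. The mu class led the soluble enzymes, with Gstm1 at 169 TPM in replicate 2 against 150 TPM in replicate 1. Gstm2 followed at 67.1 TPM in replicate 2 against 66.7 TPM in replicate 1, and Gstm7 at 50.6 TPM in replicate 2 against 45.6 TPM in replicate 1. Gstp1 of the pi class had 126 TPM in replicate 2 against 116 TPM in replicate 1. Gstz1, which also serves tyrosine breakdown, had 46.0 TPM in replicate 2 against 51.9 TPM in replicate 1. Gsto1 of the omega class had 27.4 TPM in replicate 2 against 32.1 TPM in replicate 1, and the kappa gene Gstk1 had 27.9 TPM in replicate 2 against 30.1 TPM in replicate 1. The alpha class, a major class in liver, summed to 21.7 TPM in replicate 2 against 19.4 TPM in replicate 1, all of it from Gsta4 and Gsta3.

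In all, 9 of the 54 genes did not reach 1 TPM in both libraries. Gsto2 and Gstp3 stayed below that level, and 7 were under 0.1 TPM in both: Gpx2, Gpx5, Gpx6, Gsta1, Gsta2, Gstm3 and Gstt4. Gpx5, Gpx6, Gsta1, Gsta2 and Gstt4 had no count in either library. A count of 0 allows up to 3 counts, which corresponds to between 0.0526 and 0.142 TPM in replicate 2 and between 0.0490 and 0.132 TPM in replicate 1. The limits, like the intervals below, describe counting error alone, because reads that carry no molecular identifier may be copies of 1 molecule.

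Near-identical copies limit some of these values. Of the 31-base stretches in Gsta1 transcripts 92.9% also occur in transcripts of other genes, and for Gsta2 the share was 60.7%. Gsta1 shared most with Gm3776, which had 1 count in replicate 2 and 0 in replicate 1 by alignment. Gsta2 shared most with Gsta1, which had none. For Gstp2 the share was 60.3% and for Gstp1 38.5%, each mainly with the other. Over the coding sequence Gstp1 and Gstp2 share 618 of 630 bases (98.1%), with an identical run of 300 bases. The first 60 coding bases are shown because 6 of the differences fall in them, in capitals; both genes lie on the minus strand of chromosome 19.
Gstp1: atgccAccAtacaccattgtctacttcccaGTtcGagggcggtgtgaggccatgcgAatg
Gstp2: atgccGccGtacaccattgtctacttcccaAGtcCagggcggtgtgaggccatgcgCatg

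The Gstp1 stretch spans chr19:4037374-4037863 and the Gstp2 stretch chr19:4041668-4042165, introns included, over exons 1 to 3. Gstp2 was given 14.7 TPM in replicate 2 against 16.6 TPM in replicate 1 by alignment, and its split from Gstp1 is uncertain. Gpx4 shares 38.9% of its 31-base stretches, chiefly with the pseudogene Gpx4-ps2. That pseudogene received 845 expected counts in replicate 2 and 1125 in replicate 1 by alignment, but 4.43 and 4.38 read-based estimated counts. Whether these reads come from Gpx4 was not tested.

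The libraries were then compared. The comparison took the log2 ratio of replicate 2 to replicate 1 from TMM-scaled expected counts, for the 43 genes that averaged at least 100 counts. The expected counts over genes summed to 34149978 in replicate 2 and 36182710 in replicate 1. Of the 43 genes, 34 lay within 1.2-fold (79.1%), near the 82.2% of all genes tested. A single gene, Gpx3, was over 1.5-fold apart, which is 2.33% of them, against 2.68% of the 12430 genes tested (1.42% in the same direction). The share is near that of all genes, so it is no result about the set. Ratios lay below 0 for 30 of the 43 genes, against 51.1% of all genes tested. With library totals the count was 22, against 32.95% of all genes, and with TPM ratios 20, against 32.2%. The median ratio was -0.07 over the 43 genes and -0.0044 over all genes tested.

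Gpx3 (ENSMUSG00000018339.11, chr11:54902453-54910377, plus strand) had 5913 counts in replicate 2 and 9731 counts in replicate 1. Its log2 ratio was -0.71 (95% counting interval -0.75 to -0.66), lower in replicate 2. The value stayed past 1.5-fold under every scaling, pseudocount, filter and quantifier tried. Within 1.5-fold, the genes furthest below 0 were Gstp2 at -0.46 (-0.69 to -0.22), whose split from Gstp1 is uncertain, and Gstt1 of the theta class at -0.45 (-0.62 to -0.28). Sod2 at -0.37 (-0.42 to -0.32) and Cat at -0.33 (-0.37 to -0.29) came next. The counting interval lay above 0 for 6 genes (13.95%, against 18.8% of all genes tested), namely Gclm, Gsta3, Gstm1, Mgst2, Prdx2 and Srxn1. It lay below 0 for 21 genes (48.8%, against 19.8% of all genes tested) and held 0 for 16. Library totals in place of TMM were an alternative chosen after seeing the data. With them 8 lay above, against 32.8% of all genes, and 12 below, against 11.6%. The interval narrows as counts rise, and the set was not matched to all genes tested by count level. These shares are therefore not like for like and do not by themselves show a shift of the set.

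**Figure D2:**
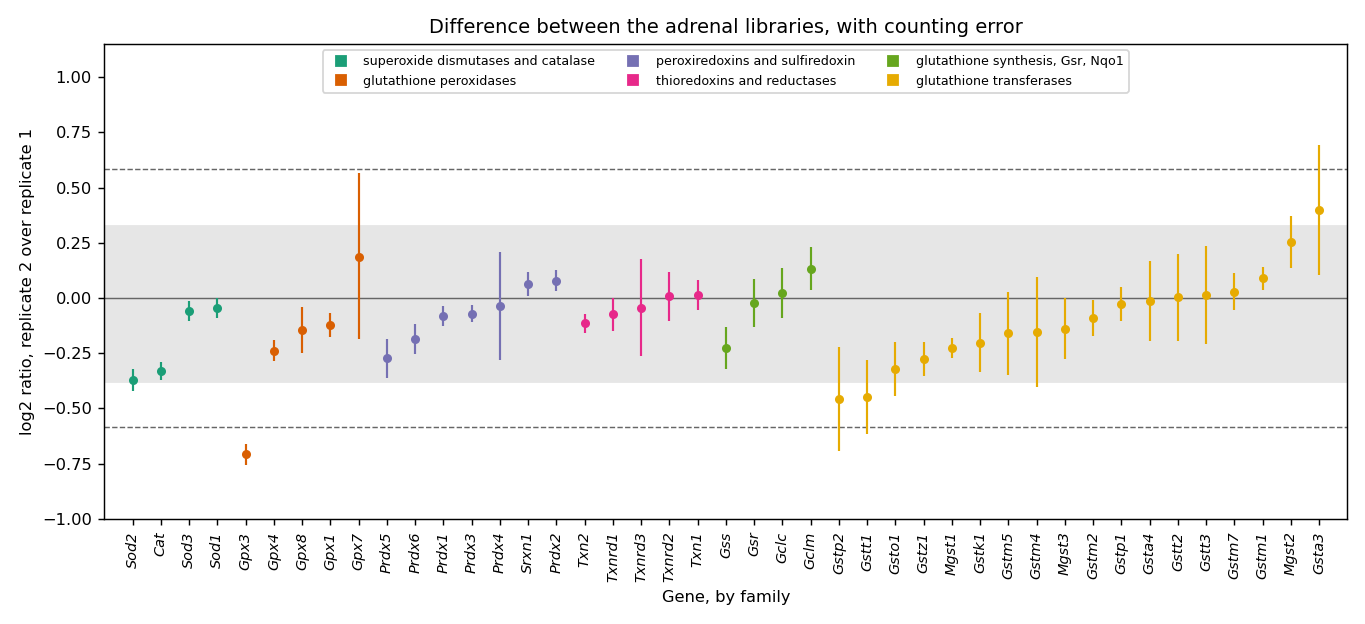
log2 ratio of replicate 2 over replicate 1 (y axis) for the 43 genes that averaged at least 100 counts (x axis, by family), with bars for the 95% counting interval, a grey band from the 5th to the 95th percentile of all genes tested (-0.38 to 0.33) and dashed lines at 1.5-fold. Gpx3 alone lies beyond a dashed line, at -0.71.

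Gclm and Gsr show how the unit matters. Gclm was 0.13 higher in replicate 2 on the log2 scale by counts but 0.52 higher by TPM, and its effective length was 1208 bases in replicate 2 and 1483 bases in replicate 1. Gsr had a log2 ratio of -0.02 by counts and 0.28 by TPM, with an effective length of 1761 bases in replicate 2 and 2030 bases in replicate 1.

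Markers of the cells in the sample were compared in the same way, and in bulk tissue fewer cells of a type and less RNA per cell cannot be told apart. The tissue label held: the 8 steroidogenic cortex markers summed to 16500 TPM in replicate 2 against 14827 TPM in replicate 1, with Star, the cholesterol carrier of steroid synthesis, at 5939 TPM in replicate 2 against 5294 TPM in replicate 1. The 8 chromaffin markers of the medulla summed to 1876 TPM in replicate 2 against 2131 TPM in replicate 1. Brown adipocyte markers summed to 803 TPM in replicate 2 against 1588 TPM in replicate 1, and 7 of 8 were over 1.5-fold lower in replicate 2. Their leading gene Ucp1, the uncoupling protein of brown fat, had 303 TPM in replicate 2 against 629 TPM in replicate 1.

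White adipocyte markers summed to 2866 TPM in replicate 2 against 3610 TPM in replicate 1, with 1 of 8 over 1.5-fold lower in replicate 2. Red cell markers summed to 1185 TPM in replicate 2 against 1959 TPM in replicate 1, with 5 of the 6 tested over 1.5-fold lower in replicate 2. Gpx3, Cat and Sod2 had their lower level in replicate 2, as did the fat and red cell lists. So did the chromaffin list, with 8 of 8 ratios below 0 and a median of -0.26, and the capsule and stroma list, with 7 of 7 and a median of -0.27. What part those cells had in the differences was not tested. Kidney markers, led by Kap and Aqp2, summed to 6.06 TPM in replicate 2 against 2.87 TPM in replicate 1. The liver list, at 349 TPM in replicate 2 against 383 TPM in replicate 1, was nearly all Cyp2e1, with 339 TPM in replicate 2 against 379.9 TPM in replicate 1, and Alb, the defining liver gene, had 5.06 TPM in replicate 2 against 0.88 TPM in replicate 1.

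Endothelial markers summed to 260 TPM in replicate 2 against 237 TPM in replicate 1, led by Plvap and Emcn, and macrophage markers to 127 TPM in replicate 2 against 120 TPM in replicate 1, led by Lyz2 and C1qb. Capsule and stroma markers, led by Dcn and Col3a1, summed to 189 TPM in replicate 2 against 229 TPM in replicate 1, and none of the 7 was over 1.5-fold apart. Schwann and sustentacular markers, with S100b highest, summed to 7.5 TPM in replicate 2 against 11.45 TPM in replicate 1, with 1 of the 3 tested over 1.5-fold lower in replicate 2. Of the leading markers not yet given, Hsd3b1 of the cortex had 3651 TPM in replicate 2 against 3584 TPM in replicate 1, and Chgb and Chga of the medulla had 643 TPM in replicate 2 against 727 TPM in replicate 1, and 559.8 TPM in replicate 2 against 627 TPM in replicate 1. Cox8b of brown fat had 271.5 TPM in replicate 2 against 509.7 TPM in replicate 1, Fabp4 of fat had 1068 TPM in replicate 2 against 1490.1 TPM in replicate 1, and Cfd had 1139.6 TPM in replicate 2 against 1275 TPM in replicate 1. Among red cell genes Hba-a1 had 442 TPM in replicate 2 against 758 TPM in replicate 1, and Hbb-bs had 381 TPM in replicate 2 against 607 TPM in replicate 1.

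**Figure D3:**
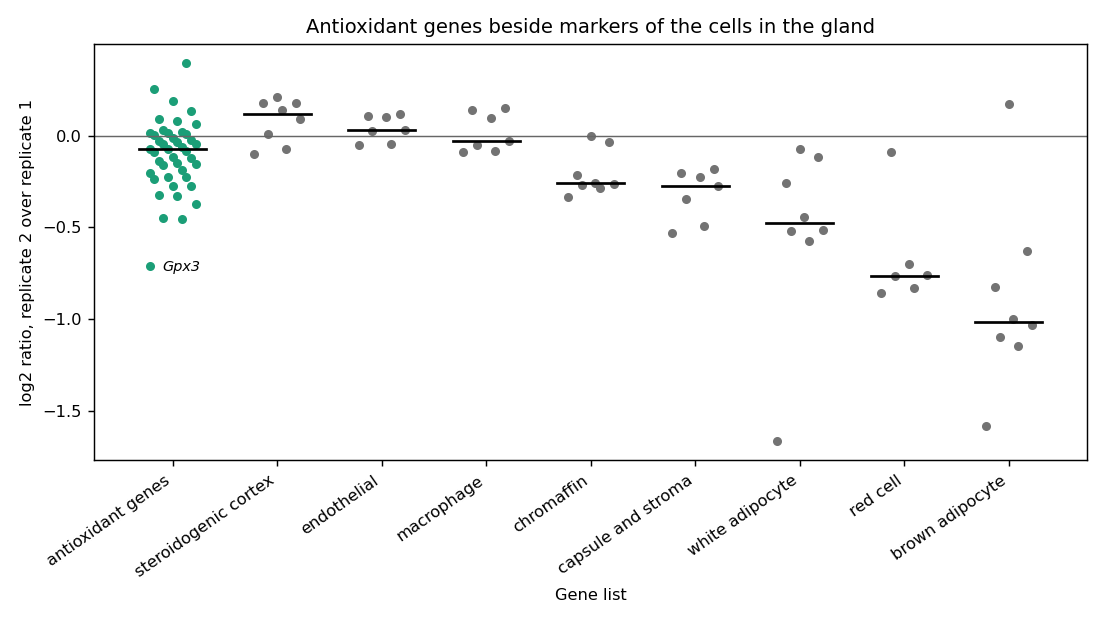
log2 ratio of replicate 2 over replicate 1 (y axis) for the 43 antioxidant genes in green and for marker lists of cell types in grey (x axis), averaging at least 100 counts, each point a gene and each bar a median. The median is -0.07 for the antioxidant genes, -0.76 for red cell markers and -1.02 for brown adipocyte markers.

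Genes that feed or use these enzymes were described from 7 lists. In 6 of the lists no tested gene was over 1.5-fold apart in either direction, against 2.68% of all genes tested. With 24 tested genes or fewer in each list, that is no result about the lists. The glutathione supply list had 15 tested genes and a median ratio of -0.17, led by Slc25a39, the mitochondrial glutathione carrier, at 128 TPM in replicate 2 against 146 TPM in replicate 1. It was followed by the amino acid carriers Slc1a5, at 69.8 TPM in replicate 2 against 84.2 TPM in replicate 1, and Slc3a2, at 72.3 TPM in replicate 2 against 58.4 TPM in replicate 1. Of the 21 genes in that list 16 reached 1 TPM in both libraries. Slc7a11, also listed, had 0.13 TPM in replicate 2 against 0.08 TPM in replicate 1, from 22 and 15 counts. The thiol reductase list had 24 tested genes and a median of -0.07. It was led by P4hb, at 178 TPM in replicate 2 against 152 TPM in replicate 1, and Pdia3, at 128 TPM in replicate 2 against 122 TPM in replicate 1, both folding enzymes. Txnip, the thioredoxin-binding protein, had 117 TPM in replicate 2 against 125 TPM in replicate 1.

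The list of Nrf2 control and other Nrf2 targets had 23 tested genes and a median of 0.04. Fth1, the ferritin heavy chain, led it at 1107 TPM in replicate 2 against 1133 TPM in replicate 1. Me1, malic enzyme and a source of NADPH, had 543 TPM in replicate 2 against 466 TPM in replicate 1, and the ferritin light chain Ftl1 had 439 TPM in replicate 2 against 387 TPM in replicate 1. These targets stood high while Nqo1 stood at 1.81 TPM in replicate 2 against 1.61 TPM in replicate 1, and Aldh3a1, another listed target, was under 0.1 TPM in both libraries.

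Selenoprotein synthesis had 10 tested genes and a median of -0.05, with Sephs2, which makes the selenium donor, at 29.9 TPM in replicate 2 against 34.1 TPM in replicate 1. Secisbp2l had 17.0 TPM in replicate 2 against 16.0 TPM in replicate 1, and Sephs1 had 15.03 TPM in replicate 2 against 13.6 TPM in replicate 1. The methionine sulfoxide reductase and sestrin list had 9 tested genes and a median of -0.14. Park7 led it at 81.1 TPM in replicate 2 against 84.5 TPM in replicate 1, ahead of Oxr1 at 60.4 TPM in replicate 2 against 59.1 TPM in replicate 1 and Msrb1, a selenoprotein, at 31.4 TPM in replicate 2 against 29.3 TPM in replicate 1.

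Superoxide sources and metal delivery had 14 tested genes and a median of 0.09. Cyp11a1, which cleaves the cholesterol side chain in mitochondria, had 2298 TPM in replicate 2 against 2148 TPM in replicate 1. Cyp11b1, the last step to corticosterone, had 1593 TPM in replicate 2 against 1321 TPM in replicate 1, and Fdxr, which passes them electrons, had 479 TPM in replicate 2 against 427 TPM in replicate 1. Of the NADPH oxidase genes, Cybb had 6.91 TPM in replicate 2 against 5.84 TPM in replicate 1, its partner Cyba had 14.1 TPM in replicate 2 against 12.6 TPM in replicate 1, and Nox4 had 0.43 TPM in replicate 2 against 0.25 TPM in replicate 1. Nox1, Nox3, Duox1 and Duox2 were under 0.1 TPM in both libraries. The lipid peroxide and ferroptosis list had 12 tested genes and a median of -0.02, with Acsl4 at 123 TPM in replicate 2 against 109 TPM in replicate 1. Ncoa4 had 65.0 TPM in replicate 2 against 67.2 TPM in replicate 1, and Aifm2 had 59.97 TPM in replicate 2 against 65.4 TPM in replicate 1. In this list 2 of 12 genes were over 1.5-fold higher in replicate 2, against 1.26% of all genes tested. Among them was the lipoxygenase Alox15, at 3.47 TPM in replicate 2 against 0.80 TPM in replicate 1.

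Transcript shares were taken next, with the leading transcript of a gene set by its mean over the libraries. Of the 45 genes at 1 TPM or more, 40 have several annotated transcripts, and the median share of the top transcript in its gene was 76.8% of TPM. It held under 70% in 16 of 40 genes (40.0%), against 55.1% of all genes measured so. Those with both quantifiers naming the same leading transcript include Gsta3, whose 894-base transcript held 44.0% in replicate 2 and 57.2% in replicate 1. In replicate 2 alone, however, a 1457-base transcript of Gsta3 held more by alignment, 48.4%. The 945-base transcript of Gstm5 held 76.9% in replicate 2 and 61.7% in replicate 1, the 821-base one of Gstp1 61.1% in replicate 2 and 68.2% in replicate 1, and the 1370-base one of Gstt2 34.4% in replicate 2 and 37.1% in replicate 1.

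Under 50% of TPM fell on protein-coding transcripts in 2 of the 40 genes, Sod2 and Prdx6, by alignment (5%, against 6.89% of all genes). In the read-based tables it was 3 of the 40 genes, those 2 and Gclm (7.5%, against 8.82%). By read-based counts, however, coding transcripts of Gclm held 68.8% in replicate 2 and 72.1% in replicate 1. In Sod2 a processed transcript of 1138 bases held 58.7% of TPM in both libraries, and protein-coding transcripts held 12.6% in replicate 2 and 11.5% in replicate 1. The coding share of Sod2 was larger by counts, at 48.3% in replicate 2 and 45.8% in replicate 1, and its main coding transcript by alignment is 5861 bases long. In Prdx6 a 1294-base transcript annotated as a target of nonsense-mediated decay held 55.6% in replicate 2 and 57.5% in replicate 1, and coding transcripts held 16.5% in replicate 2 and 18.2% in replicate 1. Prdx2 had a leading transcript with a retained intron, of 549 bases, at 34.96% in replicate 2 and 35.6% in replicate 1. The leading transcript of Gsr, of 2673 bases, is its only coding one and held 60.9% in replicate 2 and 74.5% in replicate 1.

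By the mean, the quantifiers named different leading transcripts in 7 of 40 genes (17.5%, against 23.9% of all genes): Gclm, Gpx1, Gstp2, Mgst1, Prdx1, Prdx5 and Txnrd1. For Prdx1 the read-based tables gave 79.8% in replicate 2 and 83.7% in replicate 1 to an 877-base transcript, to which the alignment-based tables gave 4.3% in replicate 2 and 8.0% in replicate 1. Those tables instead gave 63.7% in replicate 2 and 63.0% in replicate 1 to a 611-base transcript, which had 0 in the read-based tables. For Mgst1 a 1167-base transcript held 60.1% in replicate 2 and 62.8% in replicate 1 read-based, while by alignment a 742-base transcript led at 40.9% in replicate 2 and 38.8% in replicate 1. For Gpx1 a 1072-base transcript led read-based at 54.9% in replicate 2 and 56.8% in replicate 1, and a 653-base one by alignment at 54.8% in replicate 2 and 54.7% in replicate 1.

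Prdx5 had a 1262-base transcript at 57.6% in replicate 2 and 49.6% in replicate 1 read-based, and a 679-base transcript at 39.5% in replicate 2 and 44.6% in replicate 1 by alignment. In replicate 1 a 755-base transcript of Prdx5 was level with the 1262-base one in the read-based tables, at 49.8%. Txnrd1 had a 3531-base transcript at 63.5% in replicate 2 and 56.1% in replicate 1 read-based, and a 3325-base transcript at 38.1% in replicate 2 and 41.9% in replicate 1 by alignment. By alignment the 3531-base transcript held 38.9% in replicate 2 and 37.2% in replicate 1, so for Txnrd1 the quantifiers differed in replicate 1 only. Gstp2 had a 509-base transcript at 79.2% in replicate 2 and 77.3% in replicate 1 read-based, and a 797-base transcript at 55.9% in replicate 2 and 70.2% in replicate 1 by alignment. Gclm had a 762-base processed transcript at 44.4% in replicate 2 and 42.7% in replicate 1 read-based, and a 495-base one with a retained intron at 24.6% in replicate 2 and 27.3% in replicate 1 by alignment. In Gpx4 both named the same 959-base transcript by the mean, but it held 86.7% in replicate 2 and 88.6% in replicate 1 read-based and 35.5% in replicate 2 and 39.1% in replicate 1 by alignment, where a 280-base transcript with a retained intron took 36.5% in replicate 2, where it led, and 34.99% in replicate 1.

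**Figure D4:**
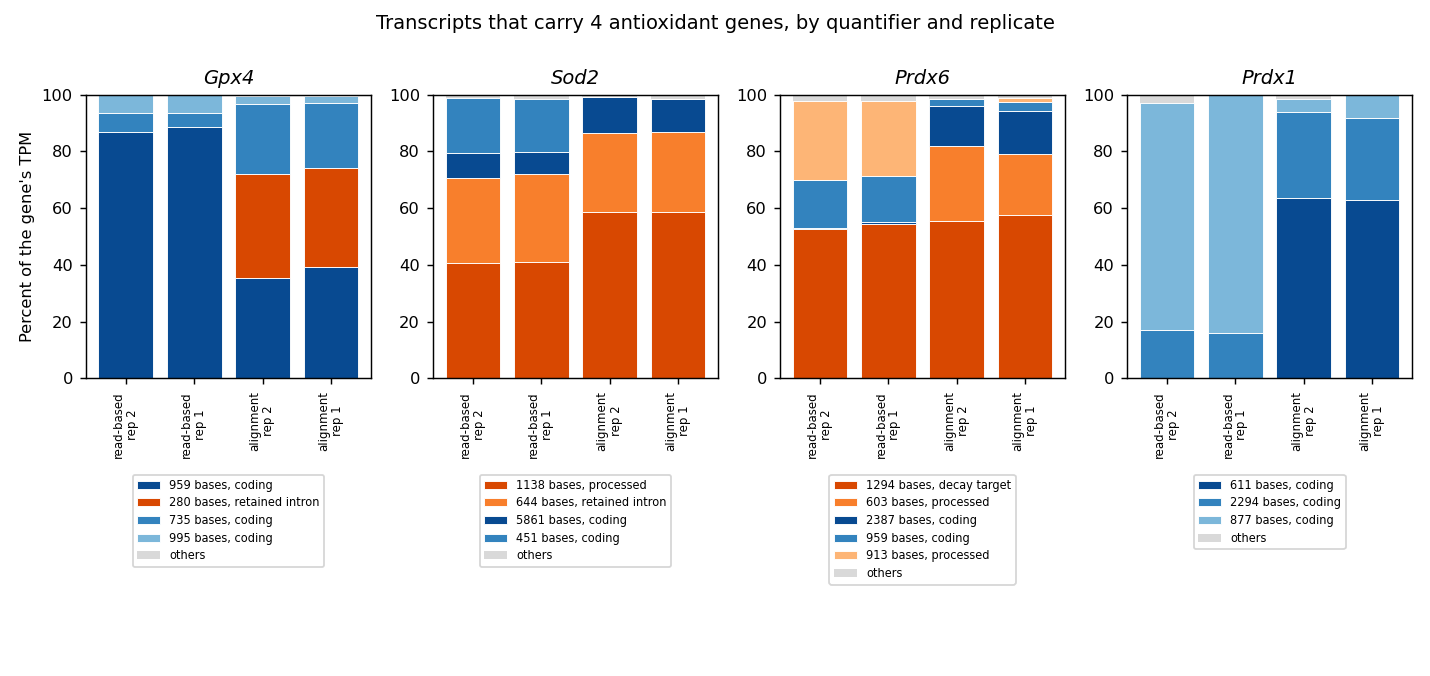
Percent of a gene's TPM (y axis) on each transcript of Gpx4, Sod2, Prdx6 and Prdx1, for both quantifiers and replicates (x axis), with coding transcripts in blue, other types in orange and the remainder in grey. Orange makes up most of Sod2 and Prdx6 in every bar, and the transcript that leads Prdx1 differs between the quantifiers.

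The quantifiers were then compared gene by gene. With TPM of each rescaled to 1000000 over protein-coding genes, none of 46 genes was over 2-fold apart in the same direction in both libraries, against 1.97% of the 13638 genes compared (1.2% higher and 0.777% lower read-based). The largest difference was that of Gclm, with log2 of read-based over alignment-based TPM at 0.76 in replicate 2 and 0.92 in replicate 1. Prdx2 followed at 0.59 in replicate 2 and 0.63 in replicate 1. Gsto2, near 1 TPM, had 0.48 in replicate 2 and 0.66 in replicate 1. Mgst2 had 0.45 in replicate 2 and 0.40 in replicate 1, and Sod2 had 0.45 in both. Prdx5 lay the other way at -0.42 in replicate 2 and -0.34 in replicate 1. The median was -0.08 over the 46 genes in both libraries, against -0.11 in replicate 2 and -0.12 in replicate 1 over all genes compared.

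**Figure D5:**
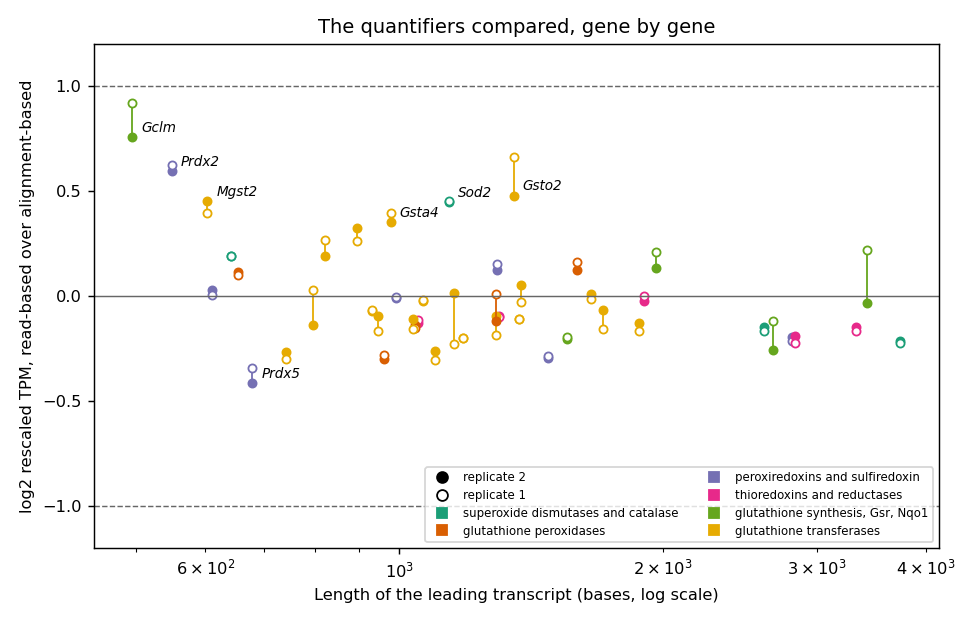
log2 of read-based over alignment-based rescaled TPM (y axis) against the length of the leading transcript in bases on a log scale (x axis), with filled points for replicate 2, open points for replicate 1 and dashed lines at 2-fold. All 46 genes lie inside the dashed lines, with Gclm nearest to the upper one.

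The start regions of these genes were searched for TGACNNNGC on both strands, the core letters of the antioxidant response element through which Nrf2 acts. Of 48 genes matched in the RefSeq promoter table (build GRCm38.p6, windows of 300 bases), 9 held it in any window (18.8%), against 13.99% of the 27025 genes in the table. Counted by window, 9 of 62 held it (14.5%), against 12.4% of 32851 windows. The genes with a match were Gclm, Gsta3, Gstm5, Gstm7, Mgst1, Prdx1, Sod1, Srxn1 and Txnrd1, and a match describes letters and not binding.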

How the data were processed

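Total RNA from mouse adrenal gland was sequenced in 2 libraries of 300 ng each, with a directional kit after ribosomal RNA reduction and with ERCC spike-ins, per the labels. The build was mm10 and the annotation GENCODE M21, per the deposited file notes. The aligner, the quantifiers and their versions are not given in the sources used here. The authors deposited gene and transcript tables with expected counts and TPM, per the file headers (alignment-based; the columns are those RSEM writes). They also deposited transcript tables of estimated counts and TPM (read-based; the columns are those kallisto writes), summed here per gene. TPM divides by effective length, so short transcripts are sensitive to how it was set. The deposited alignment-based tables also give FPKM, per the file headers, which was not used. How well reads of the CAST allele were placed was not tested.

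Library ratios used (expected counts + 0.5) over TMM-scaled library size (edgeR 4.0.16), at a mean of 100 or more counts, with 1.5-fold as the threshold and exact Clopper-Pearson 95% intervals of the share of counts in replicate 2. With 1 library against 1 library no p-value was computed. Quantifiers were compared on TPM rescaled over nuclear protein-coding genes, at 1 or more by either. Stretches of 31 bases were compared between M21 transcripts on the sense strand. The ratio and its interval were tested on simulated Poisson counts, with a shared mean per gene except for genes changed by design. Those counts hold counting error alone. The simulation therefore cannot show how well the interval covers other differences between these libraries. Alternatives were DESeq2 1.42.0 size factors, total counts, TPM ratios, other filters and pseudocounts, and the read-based tables. Scripts ran in Python 3.11.15 and R 4.3.3.

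The symbol rule and the lists were drawn up with earlier results of these data known. Named with values were genes at a mean of 20 TPM or more, those under 0.1 TPM in both libraries, those past a fold threshold or with an unsettled leading transcript, the 3 highest genes of each pathway list with those past 1.5-fold, and, some by name alone, the 2 highest of each marker list. Gclc, Gpx7, Gsto2, Gstt1, Prdx4, Txnrd3, Nqo1, Cyba, Cybb, Nox4 and Slc7a11 were added after their values were seen, to complete their families or lists. Single values of 2 listed genes are not reported here.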

Additional observations from a re-analysis of the deposited data

How the results depend on the processing

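No paired analysis was possible because both libraries belong to 1 group. The count of genes at 1 TPM or more was 45 with either library alone and 46 with read-based or rescaled TPM. The summed level was 7584 TPM in the read-based tables and 12339 after rescaling, against 3712 TPM as deposited, and lay between 3672 and 3751 TPM with either library left out. Without a filter on counts 4 genes were over 1.5-fold apart, adding Gpx2, Gstm3 and Gstp3, which have few or no counts; that is 8.16% of 49 genes, against 31.2% of all genes. The median ratio was -0.00081 with total counts, 0.021 with TPM ratios and -0.10 with read-based counts. All-gene medians under the first 2 of these were 0.07 and 0.08; total counts move every gene by the same amount. With TPM as deposited, 14 genes were over 2-fold higher read-based, against 25.8% of all genes. The median leading share was 80.8% read-based and 72.1% at 5 TPM or more, and lay between 76.8% and 78.5% with either library left out. Single ratios of 25 of 43 genes moved beyond their counting interval with TPM ratios, for which the cause was not tested. With total counts 16 of the 43 did so, and none did with DESeq2 size factors, other pseudocounts or read-based counts. With 2 libraries, for which only the sample descriptions speak for separate animals, the spread between animals is poorly known.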
